A study of Homo sapiens with 96 samples.

Results

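The report concerns 48 of the 96 single human embryonic stem cells of 1 plate: 24 cells whose transcripts leaned towards G2 and mitosis (G2/M-leaning) and 24 that leaned towards DNA synthesis (S-leaning). They were chosen by measured values. Libraries with at least 100000 gene reads, 2000 genes with a read, 1% of gene reads on mitochondrially encoded genes and 50 CPM of GAPDH were kept, which left 72 of 96. CPM is a gene's reads as a proportion of all gene reads of its library, on the usual CPM scale. Each kept cell had a score, the mean z-score of log2(CPM + 1) over TOP2A, UBE2C, CDK1, CCNB1, CENPF, PLK1, CDC20 and TPX2 minus that over PCNA, MCM3, MCM4, MCM5, MCM6, CDC6, CCNE2 and GINS2. The 24 cells with the highest score formed the G2/M-leaning group, the 24 with the lowest the S-leaning group, and the 24 between them are called middle cells.

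All 48 cells came from HUES64, an established human embryonic stem cell line, at day 0, and carried a DNMT1 knockout that can be induced; DNMT1 is the enzyme that copies DNA methylation onto newly made strands. The labels disagreed on doxycycline for every cell, one field giving it as present and another as absent. Both groups therefore share genotype, time and agent as far as the labels go. They were divided by the score, and the median depth and quality of their libraries also differed, as given below. RNA was sequenced by SMART-seq2, which copies whole messages of single cells. No second culture was named, so the 2 groups are parts of 1 sample. Cells are not replicates, and no p-value, standard error or count of significant genes is given; SDs are over cells.

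A dividing cell copies its DNA in S phase and separates the copies in mitosis, with a gap, G2, between them. Genes for replication, such as those of the MCM helicase and the sliding clamp PCNA, are transcribed from late G1 into S phase and are classical targets of E2F factors. Genes for the spindle, the kinetochore and chromosome condensation follow in G2 and mitosis, many of them through promoters with a CHR element and CCAAT boxes. Embryonic stem cells are known for short G1 phases, so many cells of a culture are in S, G2 or mitosis at any time.

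The promoters of the genes compared differed in these motifs. They were read from RefSeq (GRCh38.p14), 250 bases before and 50 after the first listed start of each gene, on both strands. The motifs were TTTGAA for the CHR element, CCAAT for the CCAAT box, and TTTCCCGC, TTTGGCGC, TTTGCCGC or TTTCGCGC for the E2F site, and none of these words contains another. Other forms of these motifs were not searched, so a promoter without a word may still hold another form. All shares below count these words only. Of 99 genes in 5 lists of G2/M genes outside the score, 86 had a promoter in the table, and 53 of these (61.6%) held a CHR element. It was present in 4 of 62 promoters (6.45%) of 5 lists of S genes with 73 members, in 10.1% of 6259 promoters of all genes compared below and in 15.4% of all 27305. The E2F site was in 4.65% of the G2/M-list promoters, 32.3% of the S-list promoters and 5.9% of those of all genes compared. The CCAAT box, with or without a CHR element, was common in both, at 65.1% of the G2/M-list and 53.2% of the S-list promoters. It was in 2376 of the 6259 promoters of all genes compared. A CHR element together with a CCAAT box was in 44.2% of the G2/M-list, 4.84% of the S-list and 4.49% of all compared promoters. Among G2/M-list genes with a promoter, the CHR element was in 28 of the 40 whose level was higher in G2/M-leaning cells by at least 1 on the log2 scale, and in 24 of the 43 others that passed the filter on low values described below. A match is a word in the sequence and does not show that a factor binds there.

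Promoters were taken from the 3 G2/M-list members with the largest and the 3 S-list members with the smallest difference that the table held. Those of ARHGAP11A, CENPE and FEN1 had none of the words searched before the start, and DLGAP5 had CHR elements and CCAAT boxes. Of the words searched, RRM2 and TIPIN had CCAAT boxes only. DLGAP5, a spindle protein, and CENPE, a kinetochore motor, are shown as G2/M genes with and without the word TTTGAA. RRM2, a ribonucleotide reductase subunit, is the S gene with the most CCAAT boxes among these. DTL, which directs the destruction of licensing factors during S phase, was added after the motifs were seen because it holds an E2F site. Each stretch is the 250 bases before the start, 5′ to 3′ on the strand of the gene, with CHR elements (on either strand), CCAAT boxes and E2F sites in capitals.
DLGAP5, chr14:55191586-55191835, minus strand: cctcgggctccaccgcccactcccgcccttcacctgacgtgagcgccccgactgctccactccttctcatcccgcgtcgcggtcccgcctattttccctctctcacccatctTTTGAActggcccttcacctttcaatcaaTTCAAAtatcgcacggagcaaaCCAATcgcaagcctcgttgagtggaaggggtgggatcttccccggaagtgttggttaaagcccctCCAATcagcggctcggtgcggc
CENPE, chr4:103198344-103198593, minus strand: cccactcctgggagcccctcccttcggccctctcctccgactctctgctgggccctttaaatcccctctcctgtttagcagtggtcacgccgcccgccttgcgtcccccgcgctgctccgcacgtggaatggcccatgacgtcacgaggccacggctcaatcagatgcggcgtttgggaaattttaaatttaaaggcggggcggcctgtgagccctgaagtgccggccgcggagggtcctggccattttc
RRM2, chr2:10122489-10122738, plus strand: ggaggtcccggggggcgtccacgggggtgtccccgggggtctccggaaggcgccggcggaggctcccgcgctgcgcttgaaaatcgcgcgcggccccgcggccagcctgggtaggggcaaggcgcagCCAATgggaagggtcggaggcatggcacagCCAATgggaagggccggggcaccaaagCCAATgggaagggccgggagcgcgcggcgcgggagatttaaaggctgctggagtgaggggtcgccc
DTL, chr1:212035498-212035747, plus strand: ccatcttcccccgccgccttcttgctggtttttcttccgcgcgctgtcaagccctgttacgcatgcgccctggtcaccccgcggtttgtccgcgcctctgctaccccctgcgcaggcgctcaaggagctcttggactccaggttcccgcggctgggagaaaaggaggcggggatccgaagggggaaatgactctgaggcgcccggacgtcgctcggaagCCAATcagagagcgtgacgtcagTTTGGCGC

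Library depth and quality overlapped between the 2 groups. Gene reads were at least 317618 in G2/M-leaning cells (median 611572) and at least 196136 in S-leaning cells (median 825222), so that 3 reads corresponded to at most 15.3 CPM in any kept library. Thinned to 100000 reads, a median of 8196.5 genes was seen in G2/M-leaning cells and 7505 in S-leaning cells. Mitochondrial genes took a median of 8.76% of gene reads in G2/M-leaning and 9.88% in S-leaning cells, and GAPDH had a median of 1077 CPM in G2/M-leaning and 1254 CPM in S-leaning cells. The S-leaning library of well E10 stood apart, with 41.8% mitochondrial reads, the lowest depth of the 72 and the ribosomal gene RPLP0 at 5.10 CPM, where the median of its group was 2716. In 3 cells of each group MT-CO2 exceeded MT-CO1, and GAPDH was at most 327 CPM in them. Plate rows F and G, described apart below, held 9 G2/M-leaning, 7 S-leaning and 3 middle cells. Their kept libraries had 16.3 to 24.1% of all reads unmapped, against 29.5 to 46.2% in the other rows. Mapped reads outside any gene made up 22.2 to 36.9% in rows F and G, against 12.7 to 19.4% in the others. The part of this in the differences was not tested, and comparisons with middle cells are unbalanced for it.

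The score is a range with no gap at its limits. It ran from 0.464 to 1.76 in G2/M-leaning cells (median 0.775), from -0.472 to 0.433 in middle cells and from -1.65 to -0.504 in S-leaning cells (median -0.788). Within 0.1 of the upper limit lay 6 G2/M-leaning and 3 middle cells, and within 0.1 of the lower limit 3 S-leaning and 2 middle cells. The score is a difference, so a cell could enter a group through low values on one side alone. In 2 G2/M-leaning cells the G2/M component itself was below 0, and in 5 S-leaning cells the S component was. Over the 72 cells the components had a Pearson correlation of 0.22 and a Spearman correlation of 0.091, as a description of cells that share 1 plate and unequal depth.

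**Figure D1:**
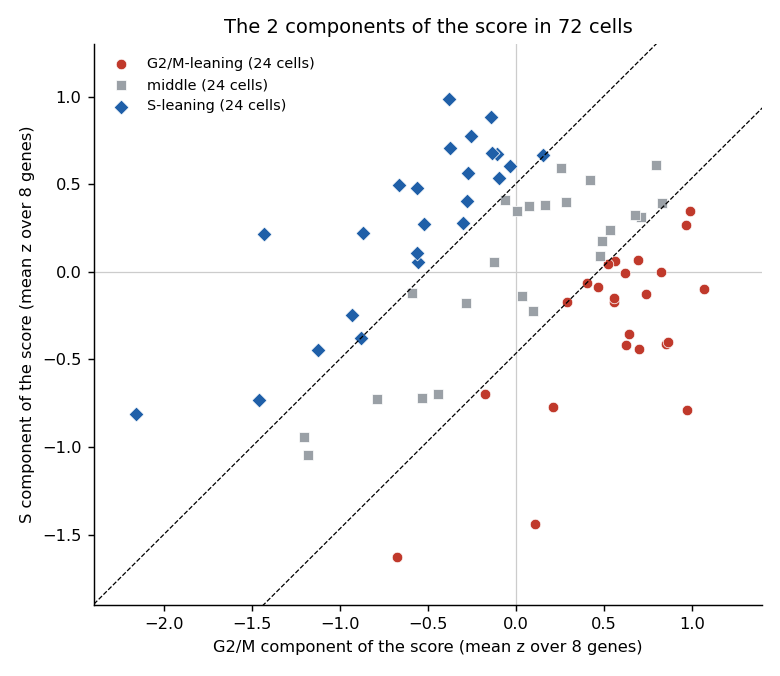
Each point is 1 of 72 cells, with the G2/M component of its score on the horizontal axis and the S component on the vertical axis (both mean z-scores over 8 genes); the dashed lines are the lowest score of the G2/M-leaning and the highest of the S-leaning group. The 2 G2/M-leaning cells left of the vertical zero line and the 5 S-leaning cells under the horizontal zero line entered their groups through low values of the other component.

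The genes of the score show what set the groups apart, and their values chose the cells. TOP2A, the topoisomerase that untangles sister DNA, had 349 to 1811 CPM in G2/M-leaning cells (median 1149.5) and 0 to 971 CPM in S-leaning cells (median 293). UBE2C, which supplies ubiquitin to the anaphase-promoting complex, had medians of 665 CPM in G2/M-leaning and 148 CPM in S-leaning cells, and CDK1, the kinase that starts mitosis, 595 CPM in G2/M-leaning and 146 CPM in S-leaning cells. All 24 G2/M-leaning cells had at least 20 CPM of each of these, and so did 23, 21 and 17 of 24 S-leaning cells. PCNA, the sliding clamp of DNA polymerases, had medians of 158 CPM in G2/M-leaning cells and 553 CPM in S-leaning cells, and MCM6, a subunit of the replicative helicase, 9.45 CPM in G2/M-leaning and 131 CPM in S-leaning cells. The S genes were the more mixed: MCM6 reached 20 CPM in 11 G2/M-leaning and 17 S-leaning cells, and CCNE2, the cyclin of S-phase entry, in 0 G2/M-leaning and 2 S-leaning cells (3 counts in place of 0 of 24 would be a share of 12.5%, and the exact 95% interval reaches 14.2%). GINS2 and MCM3 differed least among the S genes with a median above 50 CPM, with medians of 55.5 and 63.8 CPM in G2/M-leaning cells, against 59.6 and 103 CPM in S-leaning cells.

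Outside the score, 8402 genes passed a filter on low values, which asked for a mean of 10 CPM or more over the 72 cells and for reads in 50% of them. Each is described by its difference, the mean log2(CPM + 1) of G2/M-leaning cells minus that of S-leaning cells, and by its pair share, the percentage of the 576 pairs of 1 G2/M-leaning and 1 S-leaning cell in which the G2/M-leaning cell was higher, ties split evenly. A difference of 1 is a 2-fold ratio on that scale, which understates the ratio of low genes. Cells with few or no reads also weigh heavily in a mean of logs, so a difference can depart from the ratio of mean CPM either way. By the log2 ratio of mean CPM, BUB1 was at 1.27 in place of 2.36, and UBXN1 at -2.92 in place of -2.49. Over all 8402 genes, 733 (8.72%) were higher in G2/M-leaning cells by at least 1 and 327 (3.89%) were lower by at least 1. The median difference was 0.09, the median SD over cells was 2.31 and the median pair share was 51.04%. For a typical gene the groups thus overlapped almost wholly. A pair share of at least 75% was found for 36 genes, of which 20 were members of the G2/M lists, and one of at most 25% for 6 genes. These genes come from the same cells as the score and are not independent of it, so all counts and shares below are descriptions from which no support is drawn. The counts used do not separate strands, so reads of genes that overlap a coding gene on the other strand in GENCODE 29 are uncertain. Among genes named below these are AHSA1, CCNA2, CDCA3, DBF4, DNAJB1, ENO3, FEN1, HJURP, KCTD2, KIF18A, KIF4A, MCM2, MRPL11, NCAPG, PAX6, POU5F1, RACGAP1, RPA1, SGOL2, SLC5A6, TDGF1, TP53INP1 and TRIM59, and in the score CCNE2, GINS2 and PLK1. CHAF1B, DNMT1, HELLS, NUSAP1, RRM2 and TUBB3 overlap a coding gene on their own strand, and others, such as ASRGL1, DEPDC1, G2E3, HMMR, IRF2BP2 and SLC2A1, a noncoding one on the other.

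**Figure D2:**
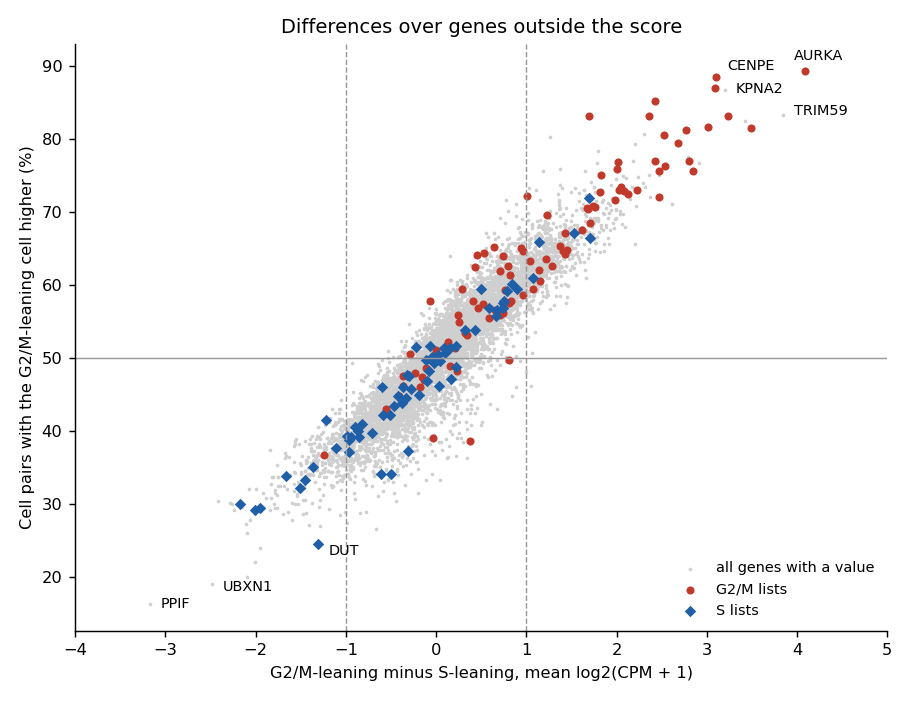
Each point is 1 of 8402 genes outside the score, with the difference in mean log2(CPM + 1), G2/M-leaning minus S-leaning, on the horizontal axis and the percentage of 576 cell pairs with the G2/M-leaning cell higher on the vertical axis; dashed lines mark a difference of 1 either way. Members of the G2/M lists (circles) fill the upper right end up to AURKA at 89.4%, and members of the S lists (diamonds) spread over both sides, with DUT the lowest at 24.6%.

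G2/M genes outside the score mostly had the higher level in G2/M-leaning cells. Of 99 members 95 passed the filter on low values, and 47 of these were higher by at least 1 and 1, MYBL2, was lower, against 8.72% and 3.89% of all genes. The median difference of the 95 was 0.97. Per cell, the mean log2(CPM + 1) of all 99 members was 5.55 ± 0.91 in G2/M-leaning cells, 5.15 ± 1.03 in middle cells and 4.39 ± 0.89 in S-leaning cells (SD over 24 cells each). It was higher in the G2/M-leaning cell in 84.4% of pairs, and 1 S-leaning cell lay above the G2/M-leaning median. In rows A to E and H, with 15 G2/M-leaning and 17 S-leaning cells, the difference in this level was 1.28, and in rows F and G it was 0.92.

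Among mitotic kinases and cyclins 7 of 16 members were higher by at least 1 and none was lower. AURKA, the kinase of centrosome maturation and spindle assembly (human chromosome 20, 56369389 to 56392337, GRCh38), had 2.24 to 425 CPM in G2/M-leaning cells (median 177), a median of 37.5 in middle cells, and 0 to 280 CPM in S-leaning cells (median 2.19). It reached 20 CPM in 23 of 24 G2/M-leaning cells (exact 95% interval 78.9 to 99.9%) and in 10 of 24 S-leaning cells (22.1 to 63.4%), intervals that cover counting error only. Its difference of 4.09 (SD 1.41 in G2/M-leaning and 3.23 in S-leaning cells) and its pair share of 89.4% were the largest of the 8402 genes. The G2/M-leaning cells were nearly all high, and 14 of 24 S-leaning cells were under 20 CPM. BUB1, a kinase of the spindle checkpoint, had medians of 308 CPM in G2/M-leaning and 138 CPM in S-leaning cells (difference 2.36, but 0.72 within rows F and G), with 60.2 CPM in the lowest G2/M-leaning cell and 0 in the lowest S-leaning cell. CKS2, a small partner of CDK1, had medians of 769 CPM in G2/M-leaning and 341 CPM in S-leaning cells (difference 1.69), and NEK2, a kinase of centrosome separation, 17.4 CPM in G2/M-leaning and 0 CPM in S-leaning cells (difference 2.47).

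The cyclins CCNB2 and CCNA2 had small differences. CCNB2, a partner of CDK1, had 203 to 2238.5 CPM in G2/M-leaning cells (median 691) and 120 to 4868 CPM in S-leaning cells (median 497), a difference of 0.43 and a pair share of 62.5%. CCNA2, the cyclin of S phase and G2, had medians of 212 CPM in G2/M-leaning and 224 CPM in S-leaning cells, a difference of -0.56 and a pair share of 43.1%. Neither difference reached 1, and every S-leaning cell had at least 98.7 CPM of both. In the pooled reads of the 9 libraries of the plate with under 1% mitochondrial reads, which hold little RNA of the cell, CCNB2 stood at 3152 CPM and CCNA2 at 1087 CPM, while AURKA stood at 4.95, BUB1 at 15.8 and CKS2 at 9.91 CPM. The part of such reads in the 2 cyclins' values was not tested.

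Spindle and cytokinesis genes were the list with the largest share of members higher by at least 1, at 21 of 26, and none was lower, with a median difference of 1.73. The level of the list was 5.83 ± 1.25 in G2/M-leaning cells and 4.12 ± 1.13 in S-leaning cells, and no S-leaning cell lay above the G2/M-leaning median. DLGAP5, whose promoter is shown above, had 13.6 to 850 CPM in G2/M-leaning cells (median 187) and 0 to 347 CPM in S-leaning cells (median 33.9), a difference of 3.09 with a pair share of 86.98%. RACGAP1, part of the complex that positions the cleavage furrow, had medians of 79.2 CPM in G2/M-leaning and 3.39 CPM in S-leaning cells (difference 3.23). ARHGAP11A, a regulator of RhoA in cytokinesis, had medians of 119 CPM in G2/M-leaning and 2.26 CPM in S-leaning cells (difference 3.49), and the kinesin KIF14 110.5 CPM in G2/M-leaning and 16.4 CPM in S-leaning cells (difference 2.85). Further motors pointed the same way, among them KIF11 (difference 2.47), KIF23 (2.13), KIFC1 (2.08), KIF18A (1.68), KIF2C (1.61) and KIF4A (1.41). HMMR, NUSAP1 and CKAP2, which bind spindle microtubules, had pair shares of 76.9%, 75.9% and 75.2%.

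Of centromere and kinetochore genes 9 of 20 were higher by at least 1 and none lower. CENPE had 1.95 to 1010 CPM in G2/M-leaning cells (median 274) and 0 to 298 CPM in S-leaning cells (median 34.2), a difference of 3.10 and a pair share of 88.5%, the second largest of all genes. NDC80, the microtubule anchor of the kinetochore, had medians of 77.7 CPM in G2/M-leaning and 2.19 CPM in S-leaning cells (difference 3.01), and reached 20 CPM in 20 G2/M-leaning and 8 S-leaning cells. HJURP, which loads the centromeric histone, had medians of 75.8 CPM in G2/M-leaning and 5.50 CPM in S-leaning cells (difference 2.80), and SGOL2, a guardian of centromeric cohesion, 92.5 CPM in G2/M-leaning and 4.99 CPM in S-leaning cells (difference 2.42).

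Genes of mitotic chromatin were higher by at least 1 in 8 of 22 members. MKI67, the proliferation antigen that coats mitotic chromosomes, had 12.5 to 962 CPM in G2/M-leaning cells (median 265) and 0 to 389 CPM in S-leaning cells (median 49.8), with a difference of 2.43 and a pair share of 85.2%. Its middle cells had a median of 180 CPM, closer to the G2/M-leaning than to the S-leaning cells. DEPDC1 (difference 2.78), the ubiquitin ligase G2E3 (2.53) and the condensin subunit NCAPG (2.22) followed. MYBL2, a transcription factor that is itself an E2F target, was the member that was lower, with medians of 1.91 CPM in G2/M-leaning and 9.59 CPM in S-leaning cells and a difference of -1.25. Genes of mitotic ubiquitination and exit were the weakest G2/M list: CDCA3 (difference 2.68) and CDCA2 (1.76) were higher by at least 1, and the other 9 of 11 lay between -0.55 and 0.76, among them ANAPC1 at 0.76 and CDC16 at -0.55, both core subunits of the anaphase-promoting complex.

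**Figure D3:**
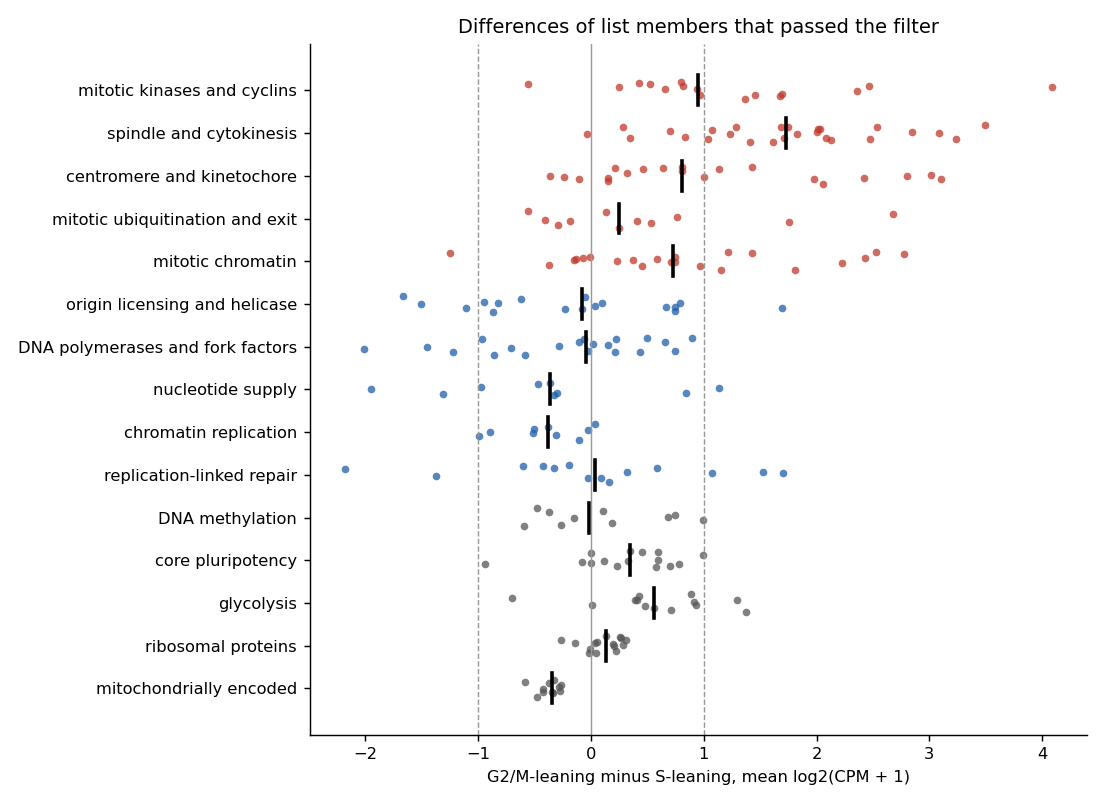
Each point is 1 list member that passed the filter on low values, at its difference in mean log2(CPM + 1), G2/M-leaning minus S-leaning; vertical bars are list medians and dashed lines a difference of 1 either way. The 5 G2/M lists at the top have medians from 0.25 to 1.73, the 5 S lists below them medians from -0.37 to 0.03, and the mitochondrially encoded genes lie together between -0.58 and -0.27.

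Beyond the lists, KPNA2, an importin that carries proteins into the nucleus (chromosome 17, 68035519 to 68046842), had 92.9 to 3219 CPM in G2/M-leaning cells (median 1207) and 0 to 821 CPM in S-leaning cells (median 288). Its difference was 3.20 and its pair share 86.8%. TRIM59, of a family of ubiquitin ligases, had medians of 227 CPM in G2/M-leaning and 1.46 CPM in S-leaning cells (difference 3.84), and reached 20 CPM in 21 G2/M-leaning and 10 S-leaning cells. It overlaps the condensin gene SMC4, so its reads are uncertain. PIF1, a DNA helicase, had medians of 84.8 CPM in G2/M-leaning and 1.80 CPM in S-leaning cells (difference 3.43). Named after their values were seen, the noncoding RNA MALAT1 had medians of 1120 CPM in G2/M-leaning and 534 CPM in S-leaning cells (pair share 80.4%), the spindle protein KNSTRN 125 CPM in G2/M-leaning and 14.8 CPM in S-leaning cells (76.7%), and the checkpoint protein SPDL1 51.3 CPM in G2/M-leaning and 17.6 CPM in S-leaning cells (78.4%).

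**Figure D4:**
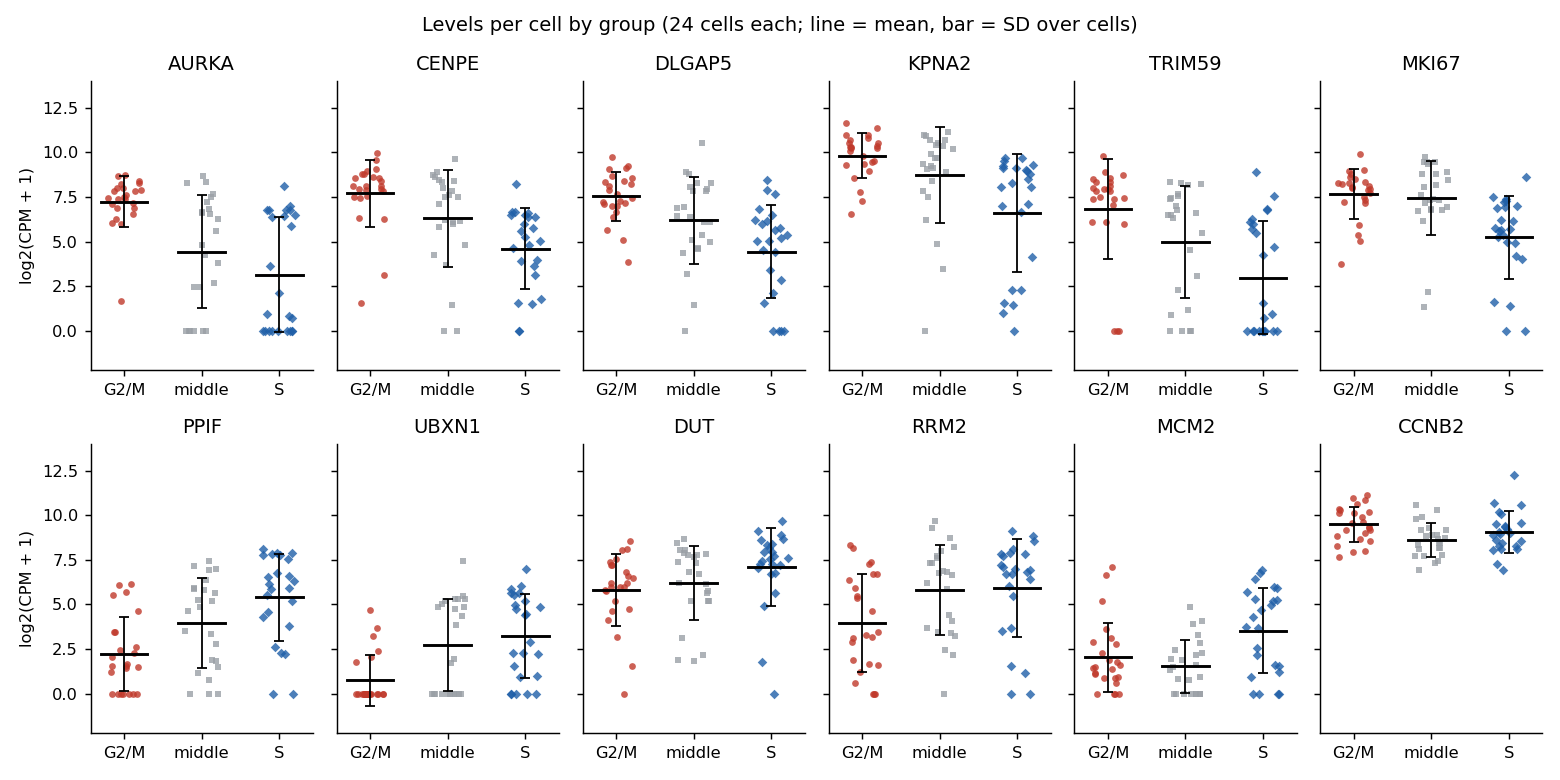
Each point is the log2(CPM + 1) of 1 gene in 1 cell, for 24 G2/M-leaning, 24 middle and 24 S-leaning cells; lines are means and bars SDs over cells. AURKA has all but 1 G2/M-leaning cell at or above 20 CPM, and 10 of 24 S-leaning cells are there too; PPIF and UBXN1 run the other way, and CCNB2 stays high in every cell.

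S genes outside the score had smaller differences. Of 73 members 69 passed the filter, and 10 were lower in G2/M-leaning cells by at least 1 and 5 were higher, against 3.89% and 8.72% of all genes. The median difference was -0.19. Per cell the level of the 73 members was 4.32 ± 0.81 in G2/M-leaning cells (from 1.96 to 5.43, median 4.40), 4.62 ± 0.96 in middle cells and 4.53 ± 1.25 in S-leaning cells (from 1.44 to 6.16, median 4.94). It was higher in the G2/M-leaning cell in 41.7% of pairs, so the groups overlapped almost wholly.

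The S-leaning cells were uneven in these genes. In the 5 with an S component below 0 the level of the S lists was 1.44 to 3.32, and in the other 19 it was 2.96 to 6.16 (median 5.22). An alternative added after the values were seen left out these 5 and the 2 G2/M-leaning cells with a G2/M component below 0. The difference in level was then -0.51, and 21 of 69 members were lower by at least 1, where 8.66% of all genes were. Over the kept cells the level of the S lists had a Spearman correlation of 0.74 with the S component. Leaving out cells low in that component therefore favours a larger difference by itself. Whether the 5 cells account for the small difference cannot be told from it. Other limits, stricter on depth, mitochondrial share and GAPDH, were met by 23 G2/M-leaning and 20 S-leaning cells. With these the difference in level was -0.52, and again 21 members were lower, against 7.59% of all genes. Without the library of well E10 alone, 16 members were lower and 3 higher, where 5.52% and 7.61% of all genes were. Without that of well E5, 7 members were higher, where 7.68% of all genes were.

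**Figure D5:**
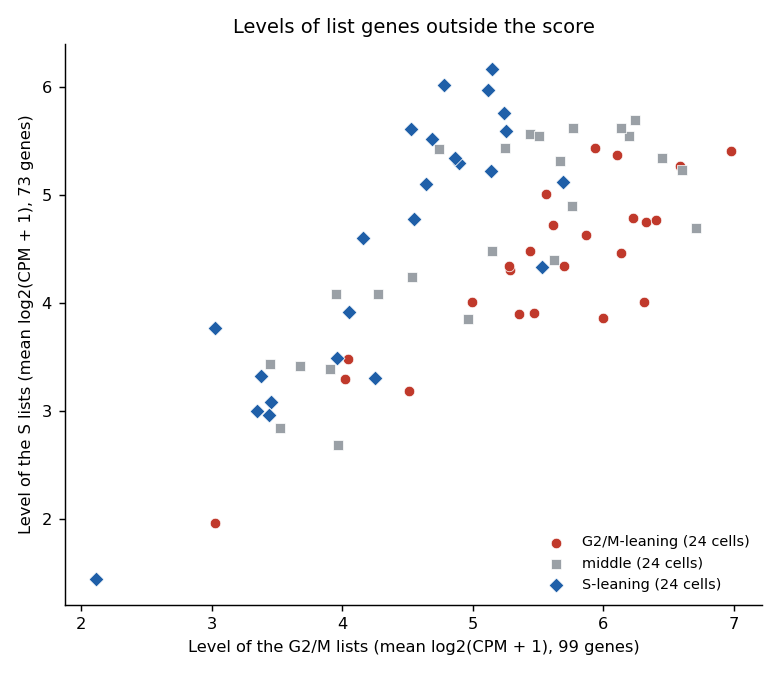
Each point is 1 of 72 cells, with the mean log2(CPM + 1) of the 99 G2/M-list genes on the horizontal axis and of the 73 S-list genes on the vertical axis. On the horizontal axis 1 S-leaning cell lies right of the G2/M-leaning median, and on the vertical axis 14 lie above it; the cell lowest on both axes, at 2.12 and 1.44, is S-leaning.

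Among genes of origin licensing and the helicase, 3 of 17 were lower in G2/M-leaning cells by at least 1 and 1 was higher. MCM2, a helicase subunit, had 0 to 136 CPM in G2/M-leaning cells (median 1.78) and 0 to 122 CPM in S-leaning cells (median 15.6), a difference of -1.51, and reached 20 CPM in 3 G2/M-leaning and 11 S-leaning cells. With a pseudocount of 10 CPM its difference was -0.80. TIPIN, of the complex that protects stalled forks, had medians of 3.24 CPM in G2/M-leaning and 24.6 CPM in S-leaning cells (difference -1.66), and MCM10, which helps to activate the helicase, 2.09 CPM in G2/M-leaning and 11.6 CPM in S-leaning cells (difference -1.10). DBF4, which activates the kinase CDC7, went the other way, with 66.2 CPM in G2/M-leaning and 16.4 CPM in S-leaning cells (difference 1.70).

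The polymerase and fork list had 3 of 20 members lower and none higher. FEN1, the nuclease that trims Okazaki fragments, had 0 to 257 CPM in G2/M-leaning cells (median 6.67) and 0 to 700 CPM in S-leaning cells (median 69.4), with a difference of -2.01. POLD3, a subunit of polymerase delta, had medians of 2.71 CPM in G2/M-leaning and 22.6 CPM in S-leaning cells (difference -1.45), and RPA1, which coats single-stranded DNA, a difference of -1.22 with 13 G2/M-leaning and 17 S-leaning cells at 20 CPM (by the ratio of mean CPM -0.10, and in rows A to E and H -0.52). POLD3 was at 0.22 within rows F and G.

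Of the 9 genes of nucleotide supply 2 were lower and 1 was higher. RRM2, whose promoter is shown above, had 0 to 321 CPM in G2/M-leaning cells (median 9.46) and 0 to 556 CPM in S-leaning cells (median 116), a difference of -1.95 that was -0.63 within rows F and G. DUT, which keeps uracil out of DNA (chromosome 15, 48331011 to 48343373), had 0 to 369 CPM in G2/M-leaning cells (median 67.3) and 0 to 830 CPM in S-leaning cells (median 191). Its pair share of 24.6% was the lowest of the S lists, with a difference of -1.31, and it was at -0.95 in rows A to E and H. SLC29A1, a nucleoside transporter, was higher, with medians of 68.9 CPM in G2/M-leaning and 23.4 CPM in S-leaning cells (difference 1.14).

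In replication-linked repair 3 of 14 members were higher and 2 lower. UNG, which removes uracil from DNA, had medians of 31.5 CPM in G2/M-leaning and 90.3 CPM in S-leaning cells (difference -1.37). The helicase BLM (medians 70.1 CPM in G2/M-leaning and 28.4 CPM in S-leaning cells, difference 1.70) and BARD1, the partner of BRCA1 (52.96 CPM in G2/M-leaning and 26.6 CPM in S-leaning cells, 1.07), were higher in G2/M-leaning cells. In chromatin replication, which includes the histone chaperone subunit CHAF1B (difference -0.99) and the remodeller HELLS (-0.50), none of 9 members differed by 1, and 1 of the 9 had a positive difference. CHAF1B was at 1.21 in rows F and G, against -2.02 in the other rows.

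Among the 12 genes with the lowest pair shares, DUT was the single member of the S lists. PPIF, a cyclophilin of the mitochondrial matrix (chromosome 10, 79347469 to 79355337), had 0 to 68.6 CPM in G2/M-leaning cells (median 2.09), a median of 25.7 CPM in middle cells and 0 to 271 CPM in S-leaning cells (median 65.3). It reached 20 CPM in 5 of 24 G2/M-leaning cells (7.13 to 42.2%) and 17 of 24 S-leaning cells (48.9 to 87.4%), with a difference of -3.17 and a pair share of 16.3%. Its pool level in the libraries under 1% mitochondrial reads was 19.8 CPM. UBXN1, a partner of the segregase p97, had medians of 0 CPM in G2/M-leaning and 13.5 CPM in S-leaning cells (difference -2.49) and reached 20 CPM in 1 G2/M-leaning and 12 S-leaning cells. AHSA1, a cochaperone of HSP90, had medians of 6.27 CPM in G2/M-leaning and 70.2 CPM in S-leaning cells (difference -2.10), SLC5A6, a vitamin transporter, 0 CPM in G2/M-leaning and 17.3 CPM in S-leaning cells (-2.10), and the transcriptional repressor IRF2BP2 4.41 CPM in G2/M-leaning and 19.1 CPM in S-leaning cells (-2.01). TUBB3, a tubulin used as a neural marker, had medians of 1.47 CPM in G2/M-leaning and 18.9 CPM in S-leaning cells (-1.96), and its pool level was 17.8 CPM. ASRGL1 (-2.09), KCTD2 (-1.41), ENO3 (-1.29), HSPA4 (-0.99) and MRPL11 (-0.67) completed the 12, and the last 2 did not reach 1.

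Of 12 G1 and G1/S regulators 1 (8.33%) was higher by at least 1 and 1 (8.33%) was lower. Of all genes 8.72% were higher and 3.89% lower. CCND2, a D-type cyclin, was the higher member (medians 233 CPM in G2/M-leaning and 147 CPM in S-leaning cells, difference 1.24). The factor E2F3 was the lower member (7.29 CPM in G2/M-leaning and 30.6 CPM in S-leaning cells, -1.07). Of 12 histone genes that are transcribed for replication, 1 passed the filter: HIST1H1C, with medians of 1.25 CPM in G2/M-leaning and 11.8 CPM in S-leaning cells and a difference of -1.06. These histone messages mostly lack the poly(A) tail by which the RNA was captured.

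None of the 10 DNA methylation genes that passed the filter reached a difference of 1, but TDG came within the third decimal of it. Of all genes 8.72% were higher and 3.89% lower by at least 1. DNMT1 had 0.81 to 152 CPM in G2/M-leaning cells (median 5.95) and 0 to 140 CPM in S-leaning cells (median 10.1). The groups overlapped, with a difference of -0.37, a pair share of 44.3% and 7 G2/M-leaning against 10 S-leaning cells at 20 CPM. Its pool level was 24.8 CPM, above both medians. UHRF1, which guides DNMT1 to replicated DNA, had medians of 8.81 CPM in G2/M-leaning and 12.9 CPM in S-leaning cells (difference -0.48), against 20.8 CPM in the pool. The glycosylase TDG had the largest difference, 0.998 (1.67 with libraries thinned to 100000 reads, 0.24 under the stricter quality limits, and at least 1 in 7 of the 12 alternative settings that keep the filter and the whole score), with medians of 67.8 CPM in G2/M-leaning and 34.4 CPM in S-leaning cells, and DNMT3A the lowest, -0.59.

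Most cells of both groups carried the transcripts of pluripotent cells. POU5F1, a central pluripotency factor, had medians of 476 CPM in G2/M-leaning cells and 588 CPM in S-leaning cells, DPPA4 631 CPM in G2/M-leaning and 632 CPM in S-leaning cells, TDGF1 529 CPM in G2/M-leaning and 480 CPM in S-leaning cells, and LIN28A 410 CPM in G2/M-leaning and 415 CPM in S-leaning cells. SOX2, also a core pluripotency gene, was much lower, with medians of 13.7 CPM in G2/M-leaning and 11.1 CPM in S-leaning cells. It reached 20 CPM in 8 G2/M-leaning and 10 S-leaning cells. POU5F1 did so in 23 G2/M-leaning and 21 S-leaning cells, DPPA4 in 24 and 21, LIN28A in 23 and 20, and TDGF1 in 23 and 23. The lowest value was 0 CPM for POU5F1 and LIN28A in both groups, and for DPPA4 in S-leaning cells. None of the 15 core pluripotency genes with a value differed by 1, where 8.72% of all genes were higher and 3.89% lower by at least 1. NANOG had the largest positive difference of the 15, 0.998. Of 9 members of the primed list 1 (11.1%), SFRP2 (1.305), was higher by at least 1, and 1 (11.1%) was lower. Of the defining markers of other lineages SOX17 had a median of 0 in both groups, and SOX1, FOXA2, GATA6, CDX2, HAND1, COL1A1 and PDGFRA had medians under 5 CPM in both. GATA3, a marker of trophoblast and amnion, had higher medians than these markers, 13.9 CPM in G2/M-leaning and 12.4 CPM in S-leaning cells. Both were below its pool level of 153 CPM. COL1A2, a fibroblast collagen, had medians of 5.37 CPM in G2/M-leaning and 7.24 CPM in S-leaning cells. PAX6 had medians of 121 CPM in G2/M-leaning and 103 CPM in S-leaning cells, below its pool level of 1044 CPM. The levels of the neural list ranged from 1.41 to 5.05 in G2/M-leaning cells and from 2.50 to 5.75 in S-leaning cells, those of the endoderm list from 0.53 to 3.07 in G2/M-leaning and from 0.46 to 5.04 in S-leaning cells. Those of the trophoblast and amnion list ranged from 0.32 to 3.18 in G2/M-leaning and from 0.49 to 3.88 in S-leaning cells. Those of the mesoderm and fibroblast list ranged from 0.85 to 4.59 in G2/M-leaning and from 0.995 to 3.72 in S-leaning cells, and KDR, an endothelial receptor, had the largest difference, 1.29.

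In glycolysis 2 of 13 genes (15.4%) were higher in G2/M-leaning cells by at least 1, against 8.72% of all genes, and both were glucose transporters. SLC2A3 had 490 to 3167 CPM in G2/M-leaning cells (median 1053) and 0 to 2172 CPM in S-leaning cells (median 869), a difference of 1.3, and SLC2A1 had medians of 102 CPM in G2/M-leaning and 44.7 CPM in S-leaning cells (1.38). Under the stricter quality limits these differences were 0.56 and 0.72, and that in the level of the list was 0.07 in place of 0.59. All 11 mitochondrially encoded genes had negative differences, from -0.58 for MT-CYB to -0.27, and none reached -1. Their level was 12.3 ± 0.59 in G2/M-leaning and 12.7 ± 0.62 in S-leaning cells, and the part of library quality in this was not tested. Of 15 ribosomal and 10 housekeeping genes none differed by 1, where 8.72% of all genes were higher and 3.89% lower. Of 9 p53 targets TP53INP1 (-1.38) and SESN1 (-1.14) were lower (22.2%, against 3.89% of all genes) and none was higher. CDKN1A, the inhibitor of cyclin-dependent kinases, was at 0.74. In the NODAL and primitive streak list EOMES (-1.23) and WNT3 (-1.16) were lower by at least 1. They were 2 of 7 members (28.6%), against 3.89% of all genes. But in rows A to E and H they were at -0.93 and -0.27, and the level of the list differed by 0.03 there and by -0.81 in rows F and G. Neither of the 2 immediate early and heat shock genes with a value, IER2 (0.38) and DNAJB1 (-0.05), reached 1.

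Many single genes depended on the plate rows or the scale. Of the 53 named genes with a difference of at least 1 either way, 25 kept it in all 12 other settings that keep the filter on low values and rank cells by the whole score. Within rows F and G 13 did not, among them DEPDC1 (0.79), G2E3 (0.50), BLM (0.70), CCND2 (0.37), SFRP2 (0.66), SLC2A1 (0.70), TIPIN (-0.28), E2F3 (-0.12) and SESN1 (-0.10). Within rows A to E and H 7 did not, among them MCM10 (-0.73), KDR (0.98) and SLC2A3 (0.80). With a pseudocount of 10 CPM 20 did not, and by the ratio of mean CPM 13 did not. IER2, under 1 over all cells, was at -1.12 in rows F and G, against 1.11 in the other rows.

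The 2 components of the score gave different pictures when used singly. When the cells were ranked by the G2/M component alone, the median difference of all 8402 genes was 0.82, and 3529 of them were higher by at least 1. When they were ranked by the S component alone, with the cells lowest in it set against the highest, the median was -0.86 and 3788 were lower. With the difference of both components it was 0.09. Over the 72 cells the levels of the G2/M and the S lists had a Spearman correlation of 0.58, as a description of cells that differ in depth and quality.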

How the data were processed

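RNA of 96 single cells was deposited as 1 table of raw read counts per well. Per the labels, poly(A) RNA was amplified with SMART-seq2 before Nextera XT library preparation. The builds GRCh38.p2 and hg38 and the tools FastQC and STAR 2.7.3a are named, per the submitters' processing notes. The annotation release is not given in the sources used here. The column of counts without regard to strand was used for 58521 gene symbols; 4 summary lines were left out, and 11.2% of all reads stood on genes. There were no molecular identifiers. The well was taken from the title, also where the name of a table in plate columns 1 and 12 gave the other column.

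CPM, the log2 scale with a pseudocount of 1, differences, pair shares and exact Clopper-Pearson intervals (scipy 1.17.1) were computed from the counts. Each cell group is part of 1 sample, so no count test was run; edgeR 4.0.16 (TMM) and DESeq2 1.42.0 gave scaling factors for alternatives. The computation was tested on simulated data. Genes were placed with GENCODE 29 (GRCh38), not known to be the authors' annotation, which matched 36084 symbols.

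The cells, gene lists and thresholds were chosen with earlier results of these data known. Named genes are the 12 highest and 12 lowest pair shares, in each list the 4 members farthest from 0, and DNMT1, UHRF1, CCNA2, CCNB2, MKI67, MCM2, POU5F1 and GAPDH. Some genes that this rule names are not reported here. Further members past 1, the score genes, lineage markers and other names were added after their values were seen. Alternatives varied the pseudocount, scaling, filters, depth, quality limits, plate rows, the size of the groups and the score, and left out each of 48 cells.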

Additional observations from a re-analysis of the deposited data

How the results depend on the processing

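No paired analysis was possible because the labels give the cells no replicate numbers. Of the 8402 genes, 733 were higher and 327 lower by at least 1, as were 47 G2/M-list members (higher) and 10 S-list members (lower). The numbers of higher genes, lower genes and lower S-list members were 149, 37 and 5 with a pseudocount of 10 CPM, 350, 113 and 5 with a mean of 50 CPM and 75% detection (3452 genes), and 1223, 1250 and 19 within rows F and G. Higher and lower genes numbered 1194 and 533 outside rows F and G, and 1180 and 564 with the 18 cells at each end of the score. Thinned to 100000 reads, 536 were lower. Lower genes and lower S-list members numbered 638 and 21 under the stricter quality limits, 728 and 21 without cells whose own component was below 0, and 144 and 6 with cells divided into upper and lower parts of 36. Leaving out 1 cell gave 639 to 878 higher and 273 to 464 lower genes, 43 to 50 higher G2/M-list members, 9 to 16 lower S-list members, and list differences of 1.07 to 1.27 (G2/M) and -0.344 to -0.107 (S). TMM and DESeq2 scaling, mean CPM ratios, no filter and residuals on genes detected moved none of these numbers by over 1.5 times. The genes behind the numbers could change more. By mean CPM ratios 396 of the 733 higher and 157 of the 327 lower genes were still past 1. With TMM scaling 707 and 317 were. With pseudocount 10 the G2/M difference in level was 0.77, by mean CPM ratios 0.90, in rows F and G 0.92 and under the stricter limits 0.99.

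Ranking by one component alone moved all genes (median 0.82 or -0.86), and the cause was not tested. By the G2/M component 3529 genes were higher, as were 76 G2/M-list members, 0 S-list members were lower, and the list differences were 1.025 for the S lists, 1.04 for origin licensing and helicase, 0.945 for polymerases and fork factors, 0.942 for nucleotide supply and 0.672 for G1 and G1/S regulators. Of named genes that had been past 1, these changed sign: DUT (0.211), AHSA1 (0.385), MCM10 (0.293), FEN1 (0.217), UNG (0.337), E2F3 (1.14) and HIST1H1C (1.35). By the S component 3788 genes were lower, 4 G2/M-list members were higher and 58 S-list members lower. The differences were then -0.897 for the G2/M lists, with kinases and cyclins at -0.596, spindle and cytokinesis at -0.889, centromere and kinetochore at -1.18, ubiquitination and exit at -0.64 and mitotic chromatin at -1.025. They were -1.70 for the S lists, with origin licensing at -1.52, polymerases at -1.67, nucleotide supply at -1.775, chromatin replication at -1.86, repair at -1.81 and G1 and G1/S regulators at -0.946. Core pluripotency was at -0.987, the primed list at -1.095, glycolysis at -1.35, housekeeping at -1.41 and the 5 loci that lead in low-mitochondrial libraries at 1.002. Genes that changed sign were AURKA (-0.007), DLGAP5 (-0.283), KPNA2 (-1.59), RACGAP1 (-0.116), BUB1 (-0.556), CKS2 (-0.417), NDC80 (-1.59), ARHGAP11A (-0.921), NEK2 (-0.901), KIF14 (-1.03), SGOL2 (-0.623), CDCA2 (-1.67), G2E3 (-0.385), NCAPG (-2.14), DBF4 (-0.674), SLC29A1 (-0.777), BLM (-1.80), SFRP2 (-0.918), SLC2A1 (-1.31) and SLC2A3 (-0.675). Within rows F and G POLD3 was at 0.222 and HIST1H1C at 0.36.

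Depth limits single genes: a gene under 15.3 CPM can rest on fewer than 3 reads in the shallowest kept library.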
